A study of Mus musculus with 12 samples.

Results

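Interferon-stimulated genes (ISGs), the genes that cells switch on when interferon reaches them, were followed in small bowel of male C57BL/6 mice around ileocecal resection, an operation that takes out the end of the ileum together with the cecum. A list of 40 ISGs was taken by name, with no measured value in the rule. The list was, however, chosen with earlier results of these data known. All 40 were found among the 35791 genes of the count tables, and all 40 passed the filter on low counts that left 13154 genes to test. Bulk RNA sequencing gave 12 libraries in 4 groups of 3. Post 2'-FL is bowel taken 8 weeks after resection from mice given 2'-fucosyllactose, a sugar of human milk abbreviated 2'-FL, at 2.5 g/L from the day of resection, and Post control is bowel at the same time without the supplement. Pre 2'-FL and Pre control are bowels labelled as taken before resection in the same arms. All mice were males of 8 to 10 weeks at surgery and had liquid diet and then chow afterwards, and beyond the strain no genotype is given. The extraction text places every collection at 8 weeks after resection, which contradicts the Pre labels. Groups here go by the label of each library, so whether and for how long Pre 2'-FL mice had the supplement is not known. The bowel segment, collection hour and any link between mice are not stated.

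Interferons come in type I (alpha and beta), type II (gamma) and type III (lambda) forms. Type I and type III act through different receptors but the same kinases, and lead to a complex with Stat2 and Irf9 that binds the interferon-stimulated response element (ISRE) in promoters. Gut epithelium is known for its response to type III interferon, and the gut microbiota is known to keep a low tonic level of ISG expression there. Many of the proteins act on viral RNA: the OAS proteins make an oligoadenylate signal that activates an RNA-degrading enzyme, IFIT proteins bind foreign RNA, and Isg15 is a ubiquitin-like protein that is joined to other proteins.

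The promoters of members with a response element are shown first, because it is the sequence that the interferon pathway acts on. RefSeq promoters of the GRCm38.p6 build, from 250 bases before to 50 bases after the transcript start, were given for 28 of the 40 members. The ISRE core searched was GAAA, any 2 bases and GAAA again, on either strand, which reads TTTC, any 2 bases and TTTC on the other strand, and overlapping matches were counted. It was found in 16 of the 28 promoters (57.1%) and in 1079 of the 27025 genes with a promoter (3.99%). Capitals mark the core in the 5 promoters below, each written 5′ to 3′ on the strand of the gene. They are Isg15 (chr4:156200769-156201068, minus strand), Rsad2 (chr12:26456403-26456702, minus), Oas1a (chr5:120907476-120907775, minus), Ifit1 (chr19:34640639-34640938, plus) and Apol9a (chr15:77411031-77411330, minus, 1 of 2 listed starts).
Isg15: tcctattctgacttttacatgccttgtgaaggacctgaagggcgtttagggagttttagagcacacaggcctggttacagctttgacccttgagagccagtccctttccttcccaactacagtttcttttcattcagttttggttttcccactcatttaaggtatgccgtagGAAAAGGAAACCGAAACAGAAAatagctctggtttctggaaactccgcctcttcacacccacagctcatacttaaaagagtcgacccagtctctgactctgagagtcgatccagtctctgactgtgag
Rsad2: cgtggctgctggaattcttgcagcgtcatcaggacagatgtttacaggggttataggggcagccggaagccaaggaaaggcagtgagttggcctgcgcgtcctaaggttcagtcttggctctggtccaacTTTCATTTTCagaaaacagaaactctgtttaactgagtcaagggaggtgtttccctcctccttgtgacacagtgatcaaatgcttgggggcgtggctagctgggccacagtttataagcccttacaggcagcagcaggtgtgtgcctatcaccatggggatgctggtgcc
Oas1a: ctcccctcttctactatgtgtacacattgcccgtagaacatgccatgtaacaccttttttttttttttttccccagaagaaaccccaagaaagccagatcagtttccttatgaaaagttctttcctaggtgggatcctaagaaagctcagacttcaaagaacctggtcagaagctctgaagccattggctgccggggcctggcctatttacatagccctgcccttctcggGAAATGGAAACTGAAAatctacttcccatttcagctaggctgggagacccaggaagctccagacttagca
Ifit1: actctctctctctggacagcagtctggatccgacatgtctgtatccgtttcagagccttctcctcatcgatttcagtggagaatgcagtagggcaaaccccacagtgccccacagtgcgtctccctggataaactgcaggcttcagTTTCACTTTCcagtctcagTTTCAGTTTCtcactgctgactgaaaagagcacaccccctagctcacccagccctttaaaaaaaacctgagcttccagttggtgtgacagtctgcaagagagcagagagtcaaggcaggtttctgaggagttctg
Apol9a: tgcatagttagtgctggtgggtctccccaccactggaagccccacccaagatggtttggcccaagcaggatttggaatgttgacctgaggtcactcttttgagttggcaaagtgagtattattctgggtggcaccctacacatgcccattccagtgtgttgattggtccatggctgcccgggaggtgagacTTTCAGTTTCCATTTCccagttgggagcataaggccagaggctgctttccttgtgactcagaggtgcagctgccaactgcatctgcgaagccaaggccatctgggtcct
Isg15 held 3 overlapping matches that begin at -78, -72 and -66 from the transcript start, and Oas1a held 2 at -20 and -14. Apol9a held 2 overlapping matches at -59 and -53 in the shown window, Ifit1 held separate matches at -104 and -85, and Rsad2 held 1 at -120. Of the 16 members with the core, 10 were called higher in Post control than in Pre control, and so were 3 of the 12 members whose window does not hold these letters. Of all tested genes 4.42% were called higher there. The difference between the counts was not tested, the members were chosen as interferon targets, and a match is not a measured binding site.

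Total counts ran from 5663275 to 9385266 per library, so 1 count was worth between 0.107 and 0.177 CPM (the count scaled to the library total). Values in CPM below also use the normalised library sizes. Per kilobase of transcript, Ifi27l2b, a small mitochondrial protein, had the highest mean level of the 40 in each group, at 563 CPM per kb in Post 2'-FL, 729 in Post control, 353 in Pre 2'-FL and 381 in Pre control. The member next in level differed by group. It was Isg15 in Post 2'-FL (101 CPM per kb), Apol9a in Post control (114 CPM per kb), and Lgals3bp in Pre 2'-FL and Pre control (93.4 and 73.2 CPM per kb). Some members share sequence, so their reads may have been divided by the authors' counting. Of the 50-base stretches of Oas1a, 57.6% also occur in Oas1g, and 54.1% of those of Oas1g occur in Oas1a. Apol9a (57.5%) and Apol9b (51.4%) share with each other, and Ifit3 shares 51.2% with Ifit3b, so these 5 members are less certain as single genes. The doubt is not limited to them. Fractional counts, which may come from divided reads, were found in all 12 libraries for Dtx3l, Ifi27l2b, Ifi35, Parp9 and Xaf1, as for Apol9a. Oas1a had them in 6 libraries, Oas1g in 5 and Ifit3 in 7.

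**Figure D1:**
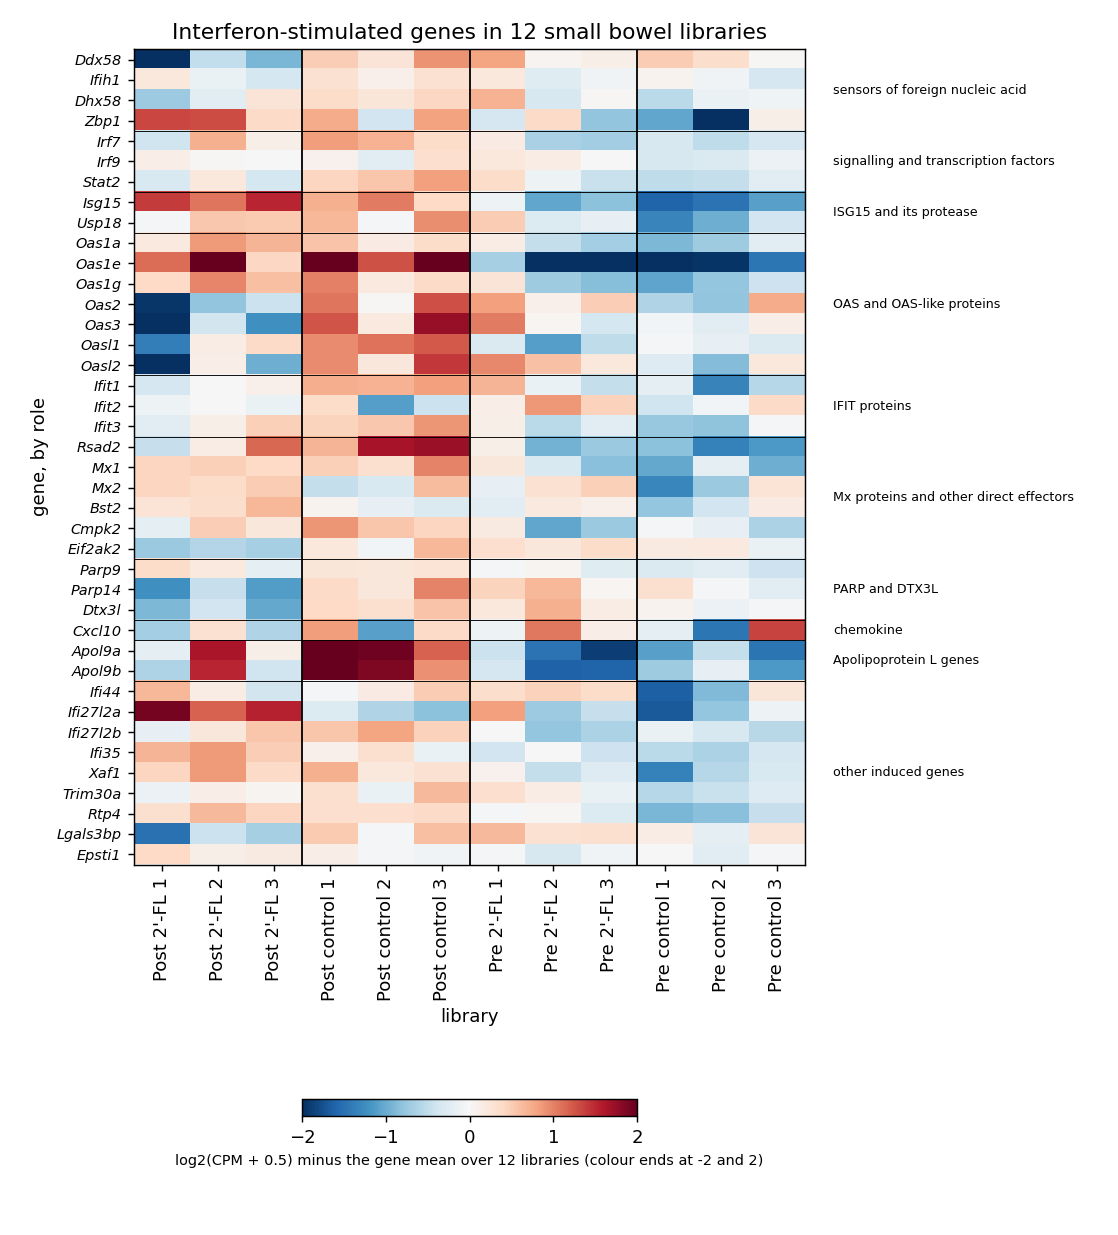
Level of the 40 ISGs, in rows by role, in the 12 libraries, in columns by group; colour is log2(CPM + 0.5) minus the gene's mean over the 12 libraries. Post control columns are mostly above the mean (37, 28 and 35 of 40 members on the log2 CPM scale) and Pre control columns mostly below it (6, 2 and 11 members above), while Post 2'-FL 1 splits, with Isg15 and Ifi27l2a high and Oas3, Oasl2 and Ddx58 low.

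Across libraries the ISGs were highest in Post control and lowest in Pre control. The median deviation of the 40 members from their own mean, in log2 units, was -0.14, 0.20 and 0.15 in the Post 2'-FL libraries 1 to 3 and 0.52, 0.23 and 0.59 in Post control. It was 0.18, -0.11 and -0.25 in Pre 2'-FL, and -0.55, -0.48 and -0.23 in Pre control. The 3 Post control libraries stood above the 3 Pre control libraries without overlap, whereas Post 2'-FL and Pre 2'-FL overlapped. The median of all tested genes stayed between -0.05 and 0.06 in every library. These values describe a list and carry no test.

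**Figure D2:**
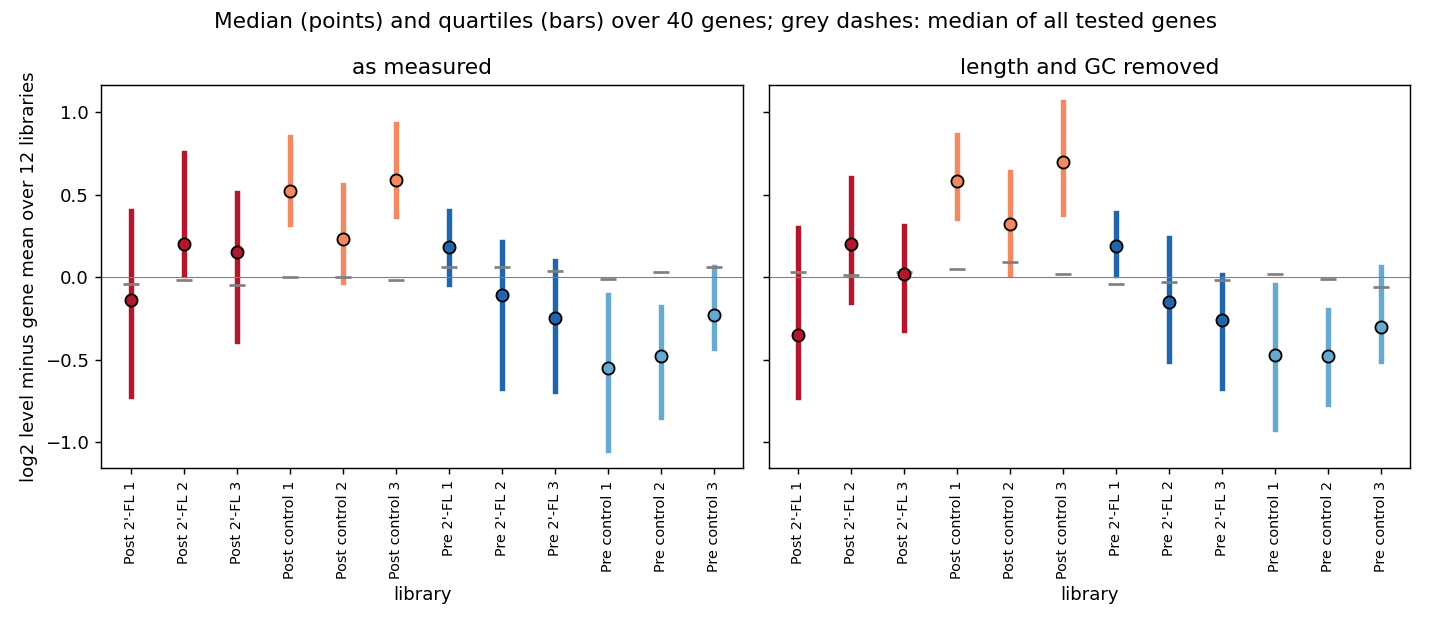
Median (points) and quartiles (bars) over the 40 ISGs of the log2 level minus the gene's mean over 12 libraries, for each library, as measured (left) and with the trends in transcript length and GC content removed (right); grey dashes are the median of all tested genes. Post control lies at 0.52, 0.23 and 0.59 and Pre control at -0.55, -0.48 and -0.23 as measured, and at 0.58, 0.32 and 0.70 against -0.47, -0.48 and -0.30 with the trends removed.

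Without the supplement, 18 of the 40 ISGs were higher in Post control than in Pre control and 0 were lower, at an adjusted p under 0.05 in edgeR's quasi-likelihood test over all genes. The background was 4.42% of all tested genes called higher and 6.33% called lower, against 45% and 0% of the members. The median log2 change of the members was 0.96, against -0.05 for all tested genes, and 38 of 40 members had a change above 0. In 26 members every Post control library was above every Pre control library, and in 0 every one was below, where 17.3% and 17.6% of all genes were so placed. With offsets for transcript length and GC content in each library, 24 members were called higher and 0 lower, against 7.31% and 4.91% of all genes. These 24 included all 18 and added Cmpk2, Dtx3l, Ifih1, Oas3, Parp9 and Parp14. In whole bowel, a change in the number of cells that make a transcript and a change in RNA per cell cannot be told apart.

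Isg15 and its protease were both higher. Isg15 (chromosome 4, 156199424 to 156200818) had 79.3, 63.0 and 86.9 CPM in Post 2'-FL, 49.2, 61.8 and 39.5 CPM in Post control, 27.7, 14.2 and 16.6 CPM in Pre 2'-FL, and 9.53, 10.4 and 13.8 CPM in Pre control. Every Post library was above every Pre library. The log2 change was 2.15 ± 0.27 (SE, adjusted p = 0.000965) in the control arm and 1.96 ± 0.26 (adjusted p = 6.57e-05) in the 2'-FL arm, in edgeR's test. With the offsets these changes were 2.04 and 0.93, still called. Usp18, which removes Isg15 from proteins and dampens signalling at the type I receptor, had 9.09, 13.7 and 13.6 CPM in Post 2'-FL, 15.1, 9.14 and 18.3 CPM in Post control, 13.5, 7.66 and 8.30 CPM in Pre 2'-FL, and 3.43, 4.47 and 7.01 CPM in Pre control. It rose in Post control by 1.52 ± 0.34 (adjusted p = 0.0153), and the Post 2'-FL and Pre 2'-FL libraries overlapped (0.29 ± 0.33, adjusted p = 0.462).

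Of the 7 OAS and OAS-like genes, 4 were called higher in Post control, namely Oas1a, Oas1e, Oas1g and Oasl1. Oas1a had 32.6, 51.6 and 45.8 CPM in Post 2'-FL, 42.5, 31.8 and 36.7 CPM in Post control, 31.4, 20.3 and 17.5 CPM in Pre 2'-FL, and 14.9, 17.1 and 24.1 CPM in Pre control. Its Post libraries lay above its Pre libraries in both arms, by 0.99 ± 0.26 (adjusted p = 0.0292) in the control arm and 0.90 ± 0.26 (adjusted p = 0.00875) in the 2'-FL arm. The 2'-FL call of Oas1a was lost with the offsets (0.64, adjusted p = 0.0517). Oas1g, which shares reads with it, had 26.1, 39.3 and 30.1 CPM in Post 2'-FL, 40.4, 22.7 and 25.9 CPM in Post control, 23.7, 11.9 and 10.7 CPM in Pre 2'-FL, and 9.28, 11.3 and 14.7 CPM in Pre control. Its changes were 1.33 ± 0.31 (adjusted p = 0.0197) and 1.04 ± 0.31 (adjusted p = 0.0119) in the control and 2'-FL arms.

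Oas1e (chromosome 5, 120786226 to 120795530) was close to absent before resection. It had 24, 79 and 14 counts in Post 2'-FL, 104, 28 and 147 counts in Post control, 8, 0 and 0 counts in Pre 2'-FL, and 0, 1 and 3 counts in Pre control. Every Post library exceeded every Pre library. The fitted log2 changes, 6.15 ± 0.94 in the control arm (adjusted p = 0.00293) and 4.06 ± 0.88 in the 2'-FL arm (adjusted p = 0.00155), rest on these few Pre counts, so their size is poorly fixed. Oasl1, an OAS-like protein that restrains Irf7 translation in mice, had 19.7, 57.9 and 68.3 CPM in Post 2'-FL, 101, 112 and 123 CPM in Post control, 42.7, 24.2 and 36.8 CPM in Pre 2'-FL, and 51.5, 46.6 and 43.0 CPM in Pre control. It rose by 1.25 ± 0.33 in Post control (adjusted p = 0.0304) and was not called in the 2'-FL arm (0.49 ± 0.34, adjusted p = 0.225).

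Among the direct antiviral effectors, Rsad2 and Mx1 were higher in Post control. Rsad2 (viperin, an enzyme that makes a chain-terminating nucleotide) had 5.87, 9.24 and 19 CPM in Post 2'-FL, 13.6, 27.1 and 28.6 CPM in Post control, 9.06, 4.06 and 4.74 CPM in Pre 2'-FL, and 4.45, 2.95 and 3.45 CPM in Pre control. It rose by 2.68 ± 0.43 in the control arm (adjusted p = 0.00395), and in the 2'-FL arm, where Post and Pre libraries overlapped, the value was 0.91 ± 0.43 (adjusted p = 0.0844). Mx1, a dynamin-like GTPase that is defective in C57BL/6 mice, had 3.98, 4.16 and 3.91 CPM in Post 2'-FL, 4.16, 3.66 and 6.11 CPM in Post control, 3.38, 2.19 and 1.36 CPM in Pre 2'-FL, and 1.14, 2.44 and 1.19 CPM in Pre control. Its change in the control arm was 1.53 ± 0.39 (adjusted p = 0.0268). Cmpk2, the mitochondrial nucleotide kinase gene that lies beside Rsad2, was at 0.89 ± 0.29 in the control arm (adjusted p = 0.0611), with its libraries apart, and was called with the offsets at 1.03 (adjusted p = 0.0339). Bst2, Mx2 and Eif2ak2 were not called in the control arm, with log2 values of 0.16, 0.71 and 0.23.

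Of the 3 IFIT genes, Ifit1 and Ifit3 were higher in Post control and Ifit2 was not called. Ifit1 had 40.5, 51.9 and 55.1 CPM in Post 2'-FL, 85.7, 83 and 90.7 CPM in Post control, 82.9, 46.9 and 36.6 CPM in Pre 2'-FL, and 45.3, 20.0 and 34.4 CPM in Pre control. The 3 Post control libraries were above all of the other 9. The change was 1.38 ± 0.30 in the control arm (adjusted p = 0.0153) and -0.18 ± 0.30 in the 2'-FL arm (adjusted p = 0.635). Ifit3 had 8.71, 11.2 and 14.5 CPM in Post 2'-FL, 14.2, 15.2 and 19.4 CPM in Post control, 11.2, 6.88 and 8.81 CPM in Pre 2'-FL, and 5.85, 5.69 and 9.98 CPM in Pre control, a control-arm change of 1.19 ± 0.28 (adjusted p = 0.0202). Ifit2 was at -0.31 ± 0.39 there (adjusted p = 0.624).

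Of the signalling genes, Irf7, the transcription factor that amplifies interferon production, had 87.5, 189 and 125 CPM in Post 2'-FL, 206, 187 and 148 CPM in Post control, 129, 73.1 and 70.8 CPM in Pre 2'-FL, and 92.3, 80.3 and 90.7 CPM in Pre control. It rose by 1.04 ± 0.28 in Post control (adjusted p = 0.0327). Stat2 rose there by 1.02 ± 0.23 (adjusted p = 0.016), at 49.3 ± 7.15 CPM in Post control against 24.3 ± 2.87 CPM in Pre control (SD, n = 3 each). Irf9 was at 0.34 ± 0.17 (adjusted p = 0.21). The 4 sensors of foreign nucleic acid were not called in the control arm, with log2 values of 0.27 for Ddx58 (RIG-I), 0.34 for Ifih1 (MDA5), 0.63 for Dhx58 (LGP2) and 1.28 for Zbp1, a sensor of left-handed nucleic acid that can trigger cell death. With the offsets Ifih1 was called higher, at 0.53 (adjusted p = 0.0426).

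Both apolipoprotein L genes, interferon-induced genes of mouse gut and other tissues, were called higher after resection in both arms as tested. Apol9a (chromosome 15, 77403789 to 77411135) had 43.2, 154 and 53.4 CPM in Post 2'-FL, 220, 191 and 113 CPM in Post control, 36.6, 17.5 and 13 CPM in Pre 2'-FL, and 23.0, 35.3 and 17.7 CPM in Pre control. Post 2'-FL 2 was far above the other two libraries of its group. The changes were 2.78 ± 0.49 in the control arm (adjusted p = 0.00614) and 1.89 ± 0.48 in the 2'-FL arm (adjusted p = 0.00436). Apol9b, which shares reads with it, had 23.7, 106 and 27.5 CPM in Post 2'-FL, 180, 134 and 69.1 CPM in Post control, 28.9, 11.6 and 11.7 CPM in Pre 2'-FL, and 22.1, 32.5 and 16.2 CPM in Pre control. In the 2'-FL arm its groups overlapped, and the change of 1.58 ± 0.55 (adjusted p = 0.0242) was 0.54 without Post 2'-FL 2 and not called. Nor was Apol9b called in that arm without Pre 2'-FL 2, without Pre 2'-FL 3, or with the offsets (1.28, adjusted p = 0.0841).

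Of the 9 other induced genes, 4 were called higher in Post control: Ifi27l2b, Xaf1, Trim30a and Rtp4. Rtp4, a chaperone of opioid receptors that binds viral RNA, had 23.7, 29.9 and 25.7 CPM in Post 2'-FL, 24.0, 23.9 and 24.7 CPM in Post control, 18.6, 19.1 and 15.6 CPM in Pre 2'-FL, and 9.79, 10.4 and 13.6 CPM in Pre control. It differed by 1.11 ± 0.19 in the control arm (adjusted p = 0.00486) and by 0.57 ± 0.18 in the 2'-FL arm (adjusted p = 0.0167), where the offsets turned the value to -0.19 with no call. Xaf1, an inhibitor of an antiapoptotic protein, had 14.8, 19.9 and 14.3 CPM in Post 2'-FL, 18.0, 12.6 and 13.5 CPM in Post control, 11.5, 7.66 and 8.98 CPM in Pre 2'-FL, and 3.94, 7.11 and 8.68 CPM in Pre control. Its changes were 1.16 ± 0.28 (adjusted p = 0.0229) in the control arm and 0.80 ± 0.28 (adjusted p = 0.027) in the 2'-FL arm. The 2'-FL call of Xaf1 was lost with the offsets (0.70, adjusted p = 0.0565). Ifi27l2b had 466, 609 and 769 CPM in Post 2'-FL, 768, 904 and 717 CPM in Post control, 518, 304 and 335 CPM in Pre 2'-FL, and 477, 418 and 354 CPM in Pre control. It rose by 0.94 ± 0.25 in the control arm (adjusted p = 0.0311), with Post control above Pre control in every library. The 1 chemokine of the list, Cxcl10, which draws activated T cells, was at -0.07 ± 0.66 in the control arm (adjusted p = 0.952), and its libraries ranged from 1.02 to 10.1 CPM in Pre control alone.

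The control-arm calls depended on single libraries. Isg15, Rsad2, Oas1e, Rtp4 and Apol9a kept their calls in every fit that left out 1 library, which is 5 of the 18. The number called was 7 without Pre control 2, 8 without Post control 1 and 8 without Post control 2. Without Pre control 3 it was 12, without Pre control 1 it was 15, and without Post control 3 it was 16. The log2 changes of the other 13 stayed above 0 in each such fit, between 0.58 for Trim30a and 2.75 for Apol9b, and their adjusted p reached at most 0.126, for Ifi27l2b.

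**Figure D3:**
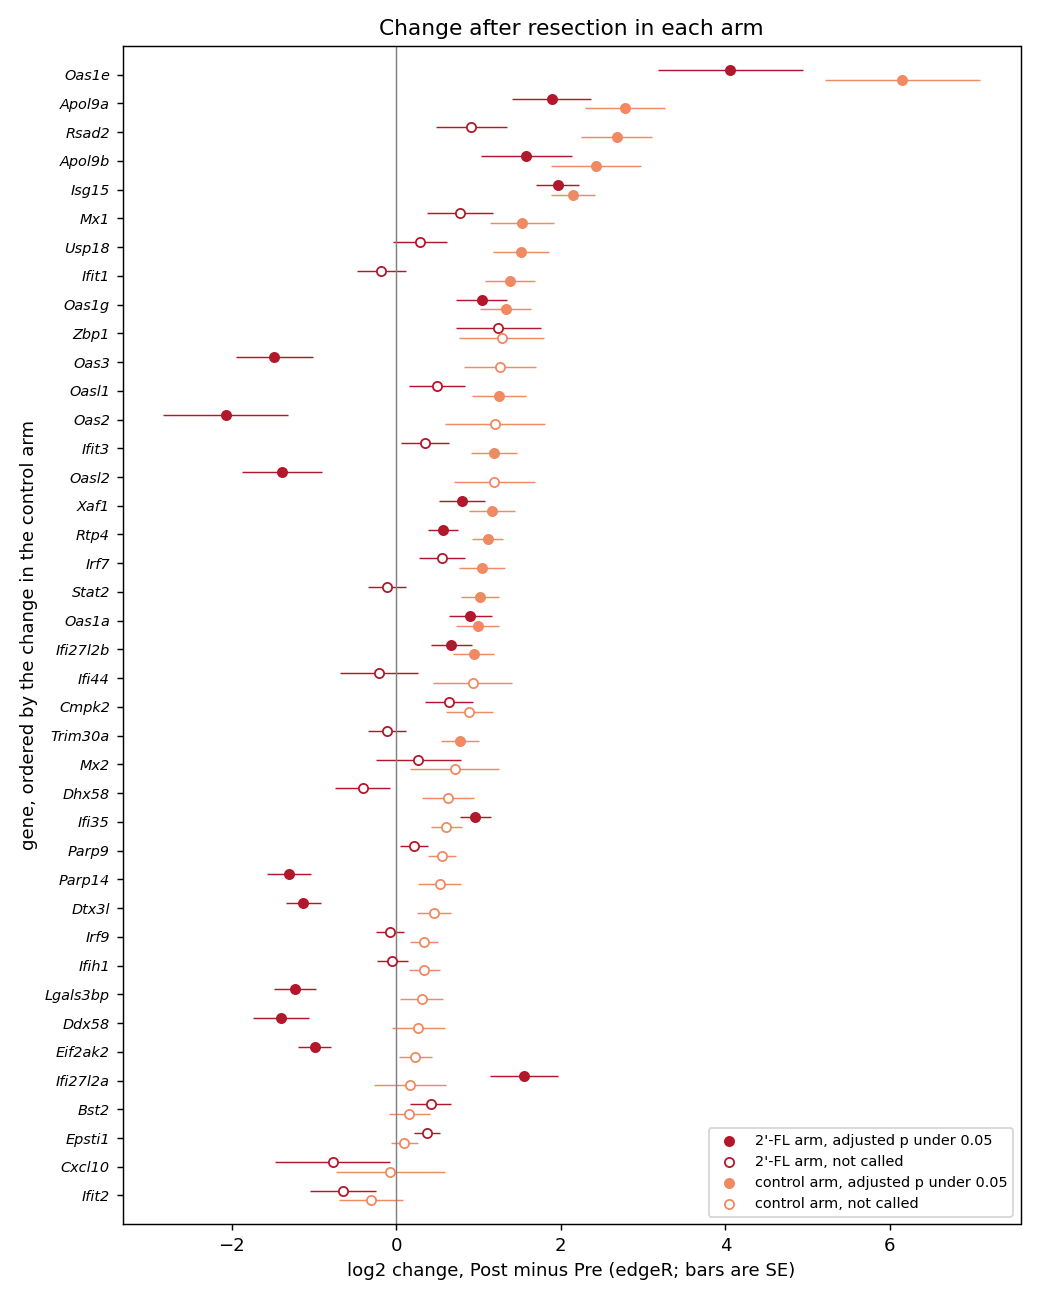
Log2 change (Post minus Pre) of each of the 40 ISGs with its SE, in the 2'-FL arm (dark red) and the control arm (orange), ordered by the control arm; filled points passed an adjusted p of 0.05 in edgeR. In the control arm 38 points lie to the right of 0 and 18 are filled, while in the 2'-FL arm 23 lie to the right, with 11 filled, and 8 are filled on the left.

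With the supplement the members split. In Post 2'-FL, 11 of the 40 were called higher than in Pre 2'-FL and 8 lower. That is 27.5% and 20% of the members, where 25.3% and 30.0% of all tested genes were called (55.3% in either direction), so the counts were near the background. The median log2 change was 0.32, against -0.13 for all genes. Higher were Isg15, Oas1a, Oas1e, Oas1g, Apol9a, Apol9b, Ifi27l2a, Ifi27l2b, Ifi35, Rtp4 and Xaf1. Of these 11, 9 were also called in the control arm, a comparison with no library in common, which is 81.8% of the 2'-FL list and 50% of the control list. Over all genes, those called higher in both arms were 13% of the 2'-FL list and 74.1% of the control list, and these shares follow the unequal lengths of the lists. Ifi27l2a and Ifi35 were the other two. Lower were Ddx58, Dtx3l, Eif2ak2, Lgals3bp, Oas2, Oas3, Oasl2 and Parp14, none of which was called in the control arm as tested. With the offsets, 3 of these 8 were called higher in the control arm, Oas3 at 1.56 (adjusted p = 0.0176), Parp14 at 0.87 (adjusted p = 0.0212) and Dtx3l at 0.72 (adjusted p = 0.023). The groups did not overlap in 12 members that were higher and in 9 that were lower, against 27.9% and 33.7% of all genes.

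Changes in the 2'-FL arm ran with transcript length. Across the 40 members the log2 change in the 2'-FL arm had a Spearman correlation of -0.66 with transcript length, and across all 12915 genes with a length -0.56. In the control arm the values were -0.16 and -0.28. These describe genes, which are not independent and share the libraries. With the offsets the 2'-FL correlations were -0.29 and -0.05, and 8 members were called higher and 4 lower, against 20.7% and 14.8% of all genes. The 8 were Apol9a, Cmpk2, Irf7, Isg15, Oas1e, Oas1g, Parp9 and Stat2, and all 8 were also called higher in the control arm with the offsets. The 4 that stayed lower were Ddx58, Dtx3l, Eif2ak2 and Lgals3bp. Over both arms together, 22 members were called higher and 3 lower, against 25.3% and 31.1% of all genes, and with the offsets 20 and 0, against 24.6% and 18.7% (43.3% in either direction). Every Post library was above every Pre library in 7 members and below in 0 (8.02% and 8.94% of all genes): Apol9a, Isg15, Mx1, Oas1a, Oas1e, Rtp4 and Xaf1.

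Ifi27l2a and Ifi35, called in the 2'-FL arm but not in the control arm, have short transcripts and are shown for that reason, after their values were seen. Ifi27l2a (463 nt) had 45.3, 27.1 and 34.8 CPM in Post 2'-FL, 9.55, 7.49 and 6.41 CPM in Post control, 20.9, 6.88 and 8.30 CPM in Pre 2'-FL, and 3.31, 6.60 and 10.8 CPM in Pre control. All Post 2'-FL libraries were above the other 9. The log2 change was 1.55 ± 0.41 in the 2'-FL arm (adjusted p = 0.00587) and 0.17 ± 0.44 in the control arm (adjusted p = 0.822). With the offsets the 2'-FL value was 0.36 (adjusted p = 0.501). Ifi35, a protein that binds transcription factors (1362 nt), had 66.1, 73.9 and 58.0 CPM in Post 2'-FL, 43.8, 51.4 and 37.4 CPM in Post control, 31.1, 40.5 and 30.7 CPM in Pre 2'-FL, and 28.0, 26.1 and 32.4 CPM in Pre control. It rose by 0.96 ± 0.19 in the 2'-FL arm (adjusted p = 0.000801), with offsets 0.43 (adjusted p = 0.0656), and part of its sequence (10.7%) lies in an overlapping gene, Gm11626.

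**Figure D4:**
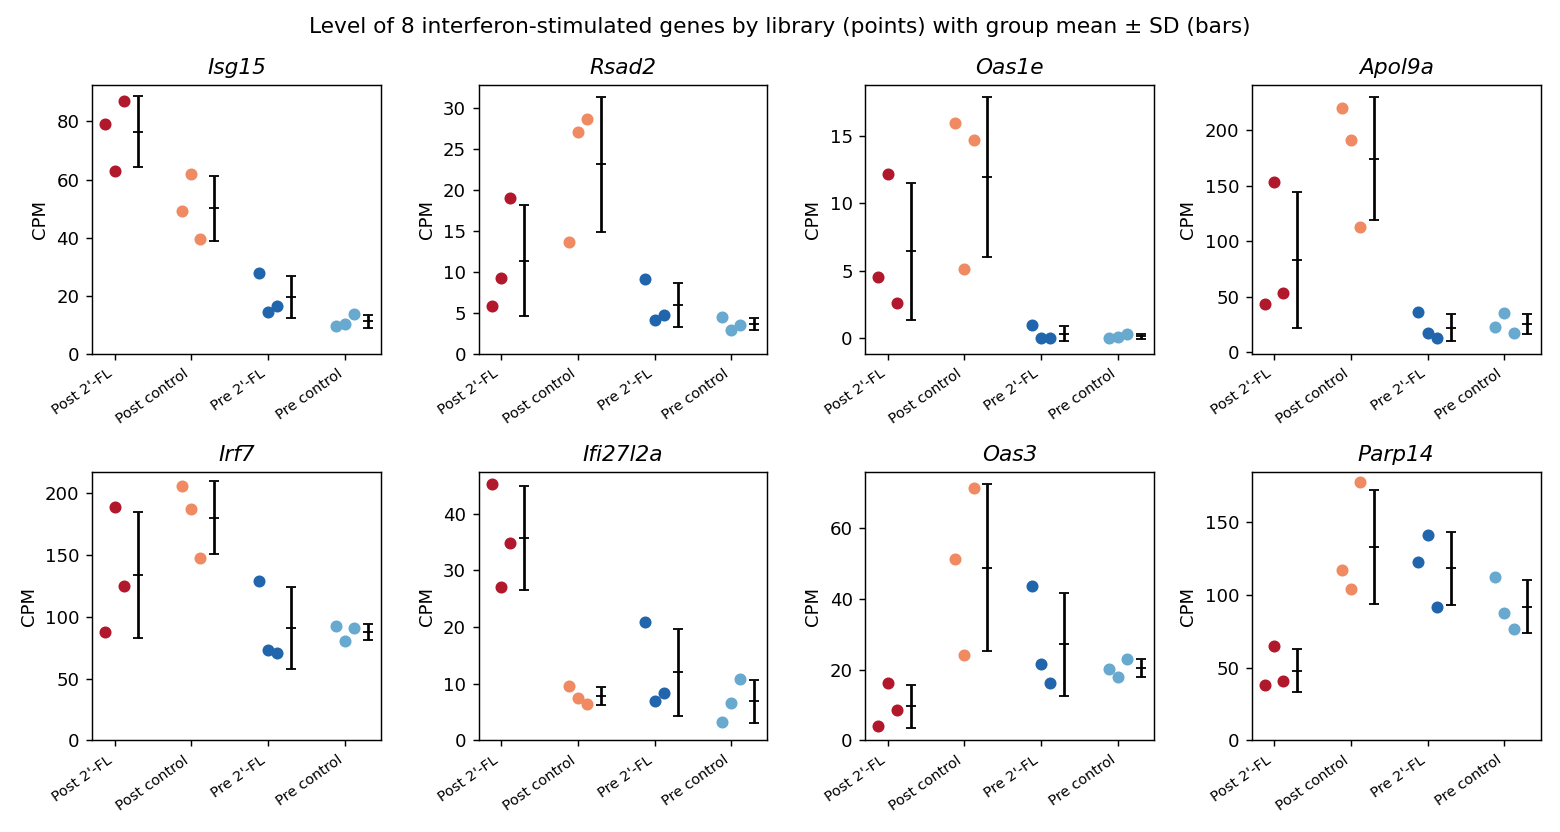
Level in CPM of 8 ISGs in each library (points) with the group mean and SD over 3 libraries (bars). Isg15, Oas1e and Apol9a are higher in both Post groups than in both Pre groups, Ifi27l2a is highest in Post 2'-FL, at 27.1 to 45.3 CPM, and Oas3 and Parp14 are lowest in Post 2'-FL, at 4.17 to 16.2 and 37.7 to 65.0 CPM.

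After resection, 11 of the 40 ISGs were lower in Post 2'-FL than in Post control and 2 were higher. The background was 19.3% of all genes lower and 18.8% higher, against 27.5% and 5% of the members. With the offsets 12 were lower and 0 higher, against 11.5% and 10.1% of all genes, and 10 members were lower in both fits. The median log2 difference was -0.40 as tested and -0.51 with the offsets, where the medians of all genes were 0.02 and 0.00. The groups did not overlap in 11 members that were lower and in 4 that were higher, against 25.4% and 25.2% of all genes. These libraries are the same Post libraries as in the 2 arms above, so the 3 comparisons are not independent.

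The members lower in both fits were Ddx58, Dtx3l, Eif2ak2, Ifit1, Lgals3bp, Oas2, Oas3, Oasl1, Oasl2 and Parp14. The following 6 were picked for display after their values were seen. Oas3 had 4.17, 16.2 and 8.74 CPM in Post 2'-FL, 51.2, 24.1 and 71.3 CPM in Post control, 43.8, 21.7 and 16.3 CPM in Pre 2'-FL, and 20.3, 18.0 and 23.1 CPM in Pre control. Its difference between Post 2'-FL and Post control was -2.32 ± 0.47 (adjusted p = 0.00216), with the offsets -1.64. Oasl2 had 8.71, 59.6 and 27.5 CPM in Post 2'-FL, 106, 63.8 and 146 CPM in Post control, 107, 81.7 and 63.0 CPM in Pre 2'-FL, and 45.5, 29.8 and 62.9 CPM in Pre control. It was lower by -1.71 ± 0.50 (adjusted p = 0.0151), and Post 2'-FL 2 came close to the lowest Post control library. Ddx58, the RNA sensor RIG-I, had 8.52, 26.8 and 19.9 CPM in Post 2'-FL, 53.8, 45.3 and 70.8 CPM in Post control, 66.2, 39.5 and 41.0 CPM in Pre 2'-FL, and 54.2, 48.5 and 38.7 CPM in Pre control. The Post 2'-FL libraries were below the other 9, with a difference of -1.62 ± 0.34 from Post control (adjusted p = 0.00244).

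Parp14 and Dtx3l, an ADP-ribosyltransferase and a ubiquitin ligase that lie near each other on chromosome 16, showed the same placing. Parp14 had 37.7, 65.0 and 40.9 CPM in Post 2'-FL, 117, 104 and 177 CPM in Post control, 122, 141 and 91.3 CPM in Pre 2'-FL, and 112, 87.2 and 76.2 CPM in Pre control. Dtx3l had 46.6, 66.7 and 42.6 CPM in Post 2'-FL, 115, 109 and 129 CPM in Post control, 101, 143 and 96.6 CPM in Pre 2'-FL, and 91.7, 80.1 and 84.3 CPM in Pre control. In both genes Post 2'-FL was below every other library, with differences from Post control of -1.47 ± 0.27 (adjusted p = 0.00125) and -1.18 ± 0.21 (adjusted p = 0.00112). Parp9, the partner of Dtx3l, whose transcript overlaps that of Dtx3l in part (9.09% of its 50-base stretches), was not called, at 119 ± 22.4 CPM in Post 2'-FL and 128 ± 1.66 CPM in Post control (SD, n = 3 each; log2 difference -0.10 ± 0.17, adjusted p = 0.674). Lgals3bp, a secreted glycoprotein that binds galectin, had 57.0, 119 and 102 CPM in Post 2'-FL, 231, 158 and 245 CPM in Post control, 253, 198 and 202 CPM in Pre 2'-FL, and 178, 141 and 193 CPM in Pre control, a difference of -1.19 ± 0.26 (adjusted p = 0.00339). Eif2ak2 (PKR, the kinase that stops translation on double-stranded RNA) was at -0.99 ± 0.20 (adjusted p = 0.00218).

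Of the 13 members called between Post 2'-FL and Post control, 7 kept their call without any 1 library: Oas3, Ifi27l2a, Ddx58, Parp14, Dtx3l, Eif2ak2 and Lgals3bp. The number called was 7 without Post control 3 (5 with the offsets), and with the offsets it was 5 without Post 2'-FL 1. Without Post control 3, Oas2, Oasl1, Oasl2, Ifit1, Stat2 and Ifi35 were not called.

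**Figure D5:**
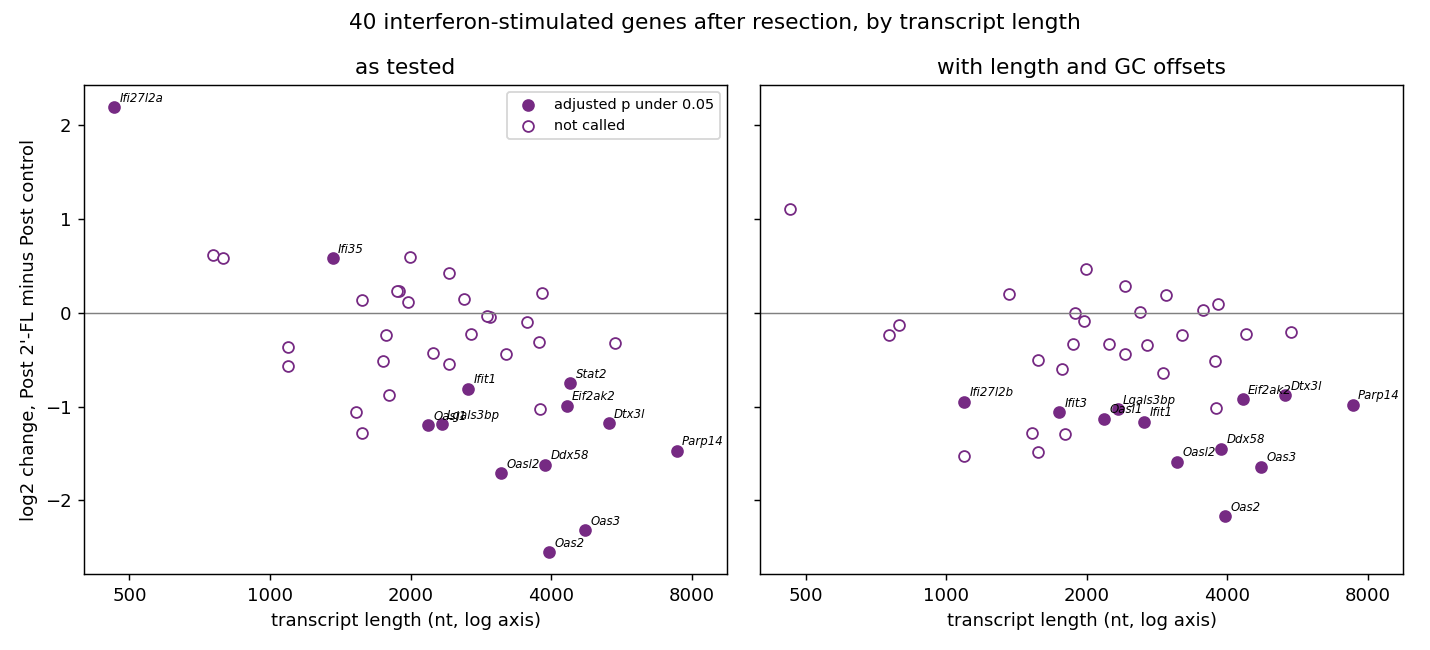
Log2 difference between Post 2'-FL and Post control for the 40 ISGs against transcript length (log axis), as tested (left) and with length and GC offsets (right); filled, named points passed an adjusted p of 0.05 in edgeR. As tested, 9 of the 19 members of at least 2500 nt are called lower and 0 higher, and of the 21 shorter ones 2 are lower and 2 higher; with the offsets 8 and 4 are lower and 0 higher.

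The direct comparison of the 2 arms, with the control-arm change taken from that of the 2'-FL arm (the interaction), was called in 10 members, all negative, against 8.03% of all genes called negative and 7.47% positive. They were Oas2, Oas3, Oasl2, Ifit1, Stat2, Ddx58, Parp14, Dtx3l, Eif2ak2 and Lgals3bp, from -1.13 ± 0.32 for Stat2 to -3.27 ± 0.98 for Oas2. Oas2 rests on 0 to 42 counts per library. The median over the 40 members was -0.76, against -0.03 for all genes, and 36 members were below 0. With the offsets edgeR called 0 members and 0% of all genes, although the median of the members was -0.97 and 38 of them were below 0. The smallest adjusted p of a member was then 0.0595, and 18 members (45%) had an unadjusted p under 0.05, as had 20% of all genes. DESeq2, run without the offsets, called 10. The number called changed when single libraries were left out. As tested it was 2 without Post control 3 (Parp14 and Dtx3l), 5 without Pre control 2 and 6 without Pre 2'-FL 1, and with the offsets it was 11 without Post 2'-FL 2 and 1 without Post control 2. The length trend runs with the groups compared, since the Spearman correlation of the interaction with length was -0.53 both for the members and for all genes.

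Before resection no ISG was called between Pre 2'-FL and Pre control. EdgeR called 0 of 40 members and 2 of all genes (0% higher and 0.0152% lower), and DESeq2 called 0 members. At an unadjusted p under 0.05 there were 6 members (15%), Ifi44, Ifit1, Isg15, Rtp4, Trim30a and Usp18, all higher in Pre 2'-FL, where 3.38% of all genes passed. The median log2 difference was 0.39, against 0.02 for all genes, and 34 of 40 members were above 0. In 10 members every Pre 2'-FL library was above every Pre control library, where 4.31% of all genes were so placed, and 1 member, Oasl1, was placed the other way (4.91%). Isg15 shows the size, at 19.5 ± 7.18 CPM in Pre 2'-FL and 11.2 ± 2.26 CPM in Pre control (SD, n = 3 each; log2 difference 0.80 ± 0.27, adjusted p = 1). The Pre groups are the baselines of the 2 arms, so a higher Pre 2'-FL level enters the smaller change in the 2'-FL arm.

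The interferon genes themselves had no counts or too few counts to test at this depth. Of 19 type I, II and III interferon genes found in the tables, 17 had 0 counts in all 12 libraries, and 0 passed the filter. Ifng had 3 and 5 counts in Post control 1 and 3 and 2 counts in Pre control 3, and Ifnk had 1 count in each of 2 Pre libraries. A count of 0 allows up to 3 counts, or between 0.32 and 0.53 CPM in a library, for counting error only.

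Of the 11 interferon receptor, kinase and STAT genes, 1 was higher in Post control than in Pre control and 0 lower (3 and 0 with the offsets), and 0 were higher and 5 lower in Post 2'-FL than in Post control (0 and 4). The shares of all genes were 4.42% higher and 6.33% lower in the control arm, and 18.8% higher and 19.3% lower between the Post groups (10.1% and 11.5% with the offsets). Jak1, the kinase shared by all 3 types of interferon receptor, averaged 55.1 ± 11.5 CPM in Post 2'-FL and 115 ± 21.3 CPM in Post control (SD, n = 3 each). It fell by 1.06 ± 0.21 on the log2 scale in that comparison (adjusted p = 0.00201; with offsets -0.70, adjusted p = 0.0175). Ifngr2, a chain of the interferon-gamma receptor, averaged 365 ± 67.6 CPM in Post 2'-FL, against 213 ± 17.1 CPM in Pre 2'-FL, a rise of 0.78 ± 0.23 (adjusted p = 0.00955). It averaged 361 ± 83.1 CPM in Post control and 251 ± 50.3 CPM in Pre control (0.52 ± 0.22, adjusted p = 0.14). Between the Post groups the edgeR difference was 0.02 ± 0.22 (adjusted p = 0.96). Of the 18 tested genes of nucleic acid sensing and interferon induction, 2 were higher and 1 lower in the control arm. There the offsets gave 4 higher and 2 lower, where 7.31% and 4.91% of all genes were so called. Tlr9, the endosomal DNA sensor, fell in both arms, to 0.0631 ± 0.109 CPM in Post 2'-FL, against 1.80 ± 0.526 CPM in Pre 2'-FL, and to 0.261 ± 0.308 CPM in Post control, against 1.98 ± 0.488 CPM in Pre control. Its Post 2'-FL mean is below the worth of 1 count in a library, so the size of the fall is poorly fixed. Azi2, an adaptor of the kinases that activate Irf3, rose by 0.63 ± 0.19 in the control arm (adjusted p = 0.0479) and 0.98 ± 0.19 in the 2'-FL arm (adjusted p = 0.00078).

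Of 15 negative regulators of interferon signalling, 1 was higher and 0 lower in the control arm, and 8 were lower in Post 2'-FL than in Post control, or 4 with the offsets, where 19.3% and 11.5% of all genes were lower. Pias4, a SUMO ligase, averaged 5.14 ± 1.88 CPM in Post 2'-FL and 14.8 ± 0.695 CPM in Post control (SD, n = 3 each), lower by -1.51 ± 0.26 (adjusted p = 0.000952). Of 56 tested other ISGs outside the list of 40, 8 were higher and 1 lower in the control arm (11 and 3 with the offsets), where 4.42% and 6.33% of all genes were (7.31% and 4.91% with the offsets), with a median of 0.05 where the 40 had 0.96. Trim12a, Slfn2 and Ube2l6, the enzyme that transfers Isg15, rose in both arms as tested. With the offsets Slfn2 stayed called in both arms, while Trim12a was at 0.30 in the 2'-FL arm (adjusted p = 0.207) and Ube2l6 at 0.62 in the control arm (adjusted p = 0.0613). Ube2l6 averaged 218 ± 26.7 CPM in Post 2'-FL, 144 ± 24.7 CPM in Post control, 84.6 ± 17.2 CPM in Pre 2'-FL and 86.5 ± 17.7 CPM in Pre control (SD, n = 3 each). Slfn9, another member of the Schlafen family, fell in both arms, with a log2 change of -3.03 ± 0.53 in the 2'-FL arm (adjusted p = 0.000361), and fell by 2.00 ± 0.47 in the control arm (adjusted p = 0.0197). Of 25 tested GTPases and chemokines linked to interferon-gamma, 1 (Batf2) was higher in the control arm and 0 lower, and in the 2'-FL arm 0 were higher and 4 lower, under the 25.3% and 30.0% of all genes. Gbp5, a guanylate-binding protein, averaged 1.08 ± 0.493 CPM in Post 2'-FL and 6.84 ± 2.33 CPM in Pre 2'-FL (SD, n = 3 each), a change of -2.62 ± 0.58 (adjusted p = 0.00182).

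Marker lists of several cell types differed between the groups in summed level, and the share of their genes called differed from list to list. All 10 epithelial markers were tested, and their summed level was 6189 to 11511 CPM in Post 2'-FL, 15315 to 16636 CPM in Post control, 9780 to 12062 CPM in Pre 2'-FL and 10507 to 15707 CPM in Pre control. Between Post 2'-FL and Post control 3 of the 10 were called lower and 0 higher, as tested and again with the offsets, where 19.3% and 11.5% of all genes were lower. In the control arm 0 of the 10 were called. The 10 enterocyte markers summed to 66380 to 71436 CPM in Post 2'-FL, 49495 to 63902 CPM in Post control, 21962 to 44334 CPM in Pre 2'-FL and 32108 to 48972 CPM in Pre control. That sum, also of epithelial genes, was higher in Post 2'-FL than in Post control, opposite to the epithelial list. Of the 10, 0 were called in the control arm, 2 were higher and 2 lower in the 2'-FL arm, and 1 was higher and 3 lower between the Post groups (0 and 2 with the offsets). Among all genes 25.3% were higher and 30.0% lower in the 2'-FL arm, and 18.8% and 19.3% between the Post groups. With the offsets the Post shares were 10.1% and 11.5%. Of 15 T cell and intraepithelial lymphocyte markers, 13 were tested and Trac and Trdc were at 0 in all libraries. Their sum was 242 to 699 CPM in Post 2'-FL, 283 to 584 CPM in Post control, 129 to 342 CPM in Pre 2'-FL and 77.3 to 308 CPM in Pre control. In the control arm 0 of the 13 were called higher and 1 lower (0 and 0 with the offsets), where 4.42% and 6.33% of all genes were. In the 2'-FL arm 2 were higher and 1 lower, and 0 and 1 with the offsets, where 20.7% and 14.8% of all genes were. The 8 plasmacytoid dendritic cell markers (5 tested) summed to 64.7 to 92.5 CPM in Post 2'-FL, 61.0 to 68.7 CPM in Post control, 68.9 to 84.5 CPM in Pre 2'-FL and 83.3 to 93.5 CPM in Pre control, with Post control below Pre control and within reach of Post 2'-FL. The 11 macrophage and dendritic cell markers found of 12 summed to 290 to 603 CPM in Post 2'-FL, 167 to 272 CPM in Post control, 324 to 577 CPM in Pre 2'-FL and 336 to 630 CPM in Pre control, again lowest in Post control. The calls of single macrophage and dendritic cell markers did not follow the sum between the Post groups. There 1 of the 11 was called higher and 2 lower in Post 2'-FL (0 and 0 with the offsets). In the control arm 0 were higher and 3 lower (0 and 2 with the offsets). The 6 Paneth cell markers summed to 12131 to 29489 CPM in Post 2'-FL, 5872 to 7803 CPM in Post control, 11475 to 36865 CPM in Pre 2'-FL and 19541 to 34415 CPM in Pre control, and all 6 were lower in the control arm in both fits. Of all genes 6.33% were lower there, and 4.91% with the offsets. Between the Post groups 5 of the 6 were called higher (1 with the offsets). The epithelial, enterocyte, Paneth cell and macrophage and dendritic cell sums did not overlap between the Post groups. Nor did those of pancreas (18.2 to 23.4 CPM in Post 2'-FL and 7.42 to 17 CPM in Post control), B and plasma cells, and smooth muscle. Only 1 of the 7 pancreas markers was tested, and Cpa1, Pnlip and Amy2a5 were at 0 in all libraries. The tested one was called higher between the Post groups, and was not called with the offsets. Of all genes 18.8% were called higher between these groups, and 10.1% with the offsets. The 9 B and plasma cell markers found of 10 summed to 1493 to 2308 CPM in Post 2'-FL and 593 to 1257 CPM in Post control, with 2 called higher (1 with the offsets). The 7 smooth muscle markers summed to 1309 to 1559 CPM in Post 2'-FL and 517 to 806 CPM in Post control, with 3 called higher as tested and 3 with the offsets. The 7 endothelial markers summed to 21.8 to 30.1 CPM in Post 2'-FL and 64.2 to 153 CPM in Pre 2'-FL, with 6 called lower (3 with the offsets). In that arm 30.0% of all genes were lower, and 14.8% with the offsets. The part of these cell types in the ISG differences was not tested.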

How the data were processed

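RNA was measured in 12 small bowel libraries made with the TruSeq kit from about 1.5 µg of RNA, per the labels' protocols. The deposited files hold an estimated count per gene, with fractional values in 15.2% to 20.5% of entries, which the authors did not normalise, as the values show. The submitters' processing notes name mm10 and DESeq without a version, and the aligner, counter, annotation and strand setting are not given in the sources used here. Without strand, overlapping antisense genes cannot be told apart. Entries of 1 gene were summed (36186 entries, 35791 genes) and rounded to whole counts. Genes were kept with filterByExpr (13154), scaled with TMM and fitted in edgeR 4.0.16 (R 4.3.3) with 1 mean per group (residual degrees of freedom 8, common biological coefficient of variation 0.238). Adjusted p values are Benjamini-Hochberg values over all 13154 genes, two-sided, and the threshold was 0.05. They measure spread between libraries only. CPM stands with the SD over 3 libraries, and SE with log2 changes. The SE was derived from the test, as the absolute log2 change over the square root of its F statistic.

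Length and GC offsets (natural splines, 4 degrees of freedom, on log2 CPM with a prior count of 2) used transcripts of the GRCm38 annotation. RLE scaling, DESeq2 1.42.0, no filter, a replicate block and leaving out each library were also run. The edgeR steps were tested on simulated data. Members, lists and tests were chosen with earlier results of these data known. Values per library were meant for about 16 members called over both arms or in the interaction, in order of p over both arms with 1 or more per role, and other members shown were picked after their values were seen. Outside the list, up to 4 genes per pathway list with the smallest p over both arms were named. Replicate numbers are not stated to mark shared mice, and of 18 pairs with the same number 4 had a correlation of deviations over 0.1 (-0.23 to 0.42), so the fit has no block. No batch is given in the labels.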

Additional observations from a re-analysis of the deposited data

Results flagged for a closer look

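The change after resection differed between the 2'-FL arm and the control arm in 10 ISGs, by the test of the difference itself in edgeR (adjusted p under 0.05 over all genes). That is 25% of the 40 members, all negative, where 8.03% of all tested genes were called negative and 7.47% positive. The log2 differences between the arms (2'-FL arm minus control arm) were -3.27 for Oas2, -2.74 for Oas3, -2.58 for Oasl2, -1.83 for Parp14, -1.67 for Ddx58, -1.59 for Dtx3l, -1.56 for Ifit1, -1.54 for Lgals3bp, -1.22 for Eif2ak2 and -1.13 for Stat2. With length and GC offsets the 10 values stayed negative, from -0.56 for Stat2 to -2.86 for Oas2, and none passed the threshold, nor did any other gene. Parp14 and Dtx3l kept their calls in every fit, made without offsets, that left out 1 library, while Oas3, Eif2ak2 and Lgals3bp lost theirs without Post control 3 alone.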

How the results depend on the processing

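Of 85 calls of single members, 81 kept direction and threshold with RLE scaling, 83 without the filter and 81 with the replicate block, and 80 of 84 did with DESeq2. With length and GC offsets 54 did, 29 lost the threshold and 2 turned, both in the 2'-FL arm. These were Ifi27l2b (-0.06, and -0.04 with the replicate block as well) and Rtp4 (-0.19 and -0.20). The offsets gave 12 members called in the 2'-FL arm against 19, and 0 in the interaction against 10, and the replicate block with the offsets also gave 12 and 0. The cause was not tested. The replicate block alone gave 17 members in the control arm, 20 in the 2'-FL arm and 9 in the interaction. Among all genes the offsets gave 4672 calls in the 2'-FL arm against 7274, 2837 between the Post groups against 5011 and 0 in the interaction against 2038, and between the Pre groups DESeq2 called 24 genes and the fit without a filter 12, against 2.

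Leaving out 1 library gave 7 to 21 members in the control arm, 13 to 22 in the 2'-FL arm, 20 to 27 over both arms, 7 to 15 between the Post groups, 0 between the Pre groups and 2 to 12 in the interaction. The same fits with the offsets, added after seeing the data, gave 11 to 25, 6 to 16, 18 to 24, 5 to 15, 0 and 0 to 11. In the 2'-FL arm with the offsets the count was 6 without Pre 2'-FL 3, 8 without Pre 2'-FL 2, and 10 to 16 without any other library. With 3 libraries a group and few counts for Oas1e and Oas2, small changes were not detectable.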
